A study of Mus musculus with 18 samples.

Results

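The genes described here are 10 lipoprotein genes of mouse liver, Apoa1, Apoa2, Apoa4, Apoa5, Apob, Apoc3, Apoe, Apom, Mttp and Lpl, out of 15572 genes in the RNA-seq count table. They were chosen by gene symbol as a list of apolipoproteins and lipoprotein assembly genes, with earlier results of these data known. All 10 were counted and passed the filter on low counts. Of 26180 genes with a curated RefSeq transcript on GRCm38.p6 (mm10), they were also examined for peak summits of ATAC-seq and of H3K9me2 ChIP-seq at their transcription start sites.

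Lipoproteins carry triglyceride and cholesterol through blood inside a shell of phospholipid and apolipoproteins. In the hepatocyte, Mttp, the microsomal triglyceride transfer protein, loads lipid onto Apob as it is made, and the particle is secreted as VLDL. Exchangeable apolipoproteins such as Apoa1, Apoc3 and Apoe then move between particles, while Lpl, lipoprotein lipase, removes triglyceride from them at the capillary wall.

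The study asked what the histone demethylase JMJD1C does in liver on feeding. JMJD1C-LKO mice carry an engineered Jmjd1c allele, from which the Neo cassette was removed by FLP recombinase, and Cre driven by the albumin promoter, which is active in hepatocytes. Controls were C57bl/6j WT littermates. The labels give no age for single samples, and mice had been kept on chow for 6 to 8 weeks. Mice were fasted overnight, and refed mice then had a high-carbohydrate diet, for 6 h by the labels and for 8 to 16 h by the general methods. Open chromatin was profiled by ATAC-seq in livers of fasted WT, refed WT and refed JMJD1C-LKO mice, and H3K9me2 by ChIP-seq in fasted and refed WT livers, each liver being 1 mouse. The RNA-seq libraries held pooled RNA of refed WT or refed JMJD1C-LKO livers, and every group had 2 samples. Fasted and refed states came from the sample titles, read with the reporting summary.

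Total estimated counts lay between 51265128 and 54400509 per RNA-seq library. Jmjd1c, the targeted gene, had 22.4 ± 0.56 CPM (counts scaled to library size, SD, n = 2) in the WT libraries and 20.3 ± 0.32 CPM in those labelled JMJD1C-LKO, a log2 fold change of -0.14 ± 0.08 (SE, adjusted p = 0.233 in edgeR's quasi-likelihood test). Its gene-level counts thus do not show a loss. Which exons the deletion removes is not given in the sources used here, so these counts cannot check the labels, and each direction below rests on the labels. Over all 14151 genes tested, 14.6% were higher and 13.4% lower in the LKO-labelled libraries, and the marker counts below stand beside these shares. The Kupffer cell markers were higher in the LKO-labelled libraries in 7 of 7 cases. Their summed levels were 234 and 239 CPM in WT and 465 and 674 CPM in LKO-labelled libraries. Endothelial markers were higher in 5 of 7 cases, with summed levels of 108 CPM in both WT and 143 and 189 CPM in LKO-labelled libraries. Hepatocyte markers were higher in 5 of 10 cases (Tat, Pck1, Cps1, Ass1 and Hpx) and lower in 0. Alb, Ttr, Serpina1a, Cyp2e1 and Fga were not called. Summed over all 10, levels were 117095 and 114695 CPM in WT and 123103 and 111152 CPM in LKO-labelled libraries, and the groups overlapped. Lymphocyte markers were higher in 2 of 6 tested, and stellate cell and cholangiocyte markers were called in 0 of 6 and 0 of 5. In whole liver, fewer cells of a type and less RNA per cell cannot be told apart.

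The sequence before a start is shown for the genes on which the results below turn, Apoa4 and Apom, for Apoa5, which holds an E-box, and for the short gap between the starts of Mttp and its divergent neighbour Trmt10a. RefSeq promoter sequences on GRCm38.p6 were found for 8 of the 10 genes, and not for Apoc3 or Lpl. Each of the first 3 is the 250 bases before the start, 5′ to 3′ on the strand of the gene, with capitals for motif matches. They lie at chr9:46240594-46240843 (plus strand, Apoa4), chr17:35131802-35132051 (minus strand, Apom) and chr9:46268358-46268607 (plus strand, Apoa5). The gap, on the Mttp (minus) strand, is chr3:138143419-138143447.
Apoa4: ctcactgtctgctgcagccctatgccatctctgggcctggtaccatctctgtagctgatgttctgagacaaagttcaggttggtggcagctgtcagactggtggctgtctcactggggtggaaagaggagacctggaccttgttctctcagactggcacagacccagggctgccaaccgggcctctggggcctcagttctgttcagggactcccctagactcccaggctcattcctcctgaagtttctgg
Apom: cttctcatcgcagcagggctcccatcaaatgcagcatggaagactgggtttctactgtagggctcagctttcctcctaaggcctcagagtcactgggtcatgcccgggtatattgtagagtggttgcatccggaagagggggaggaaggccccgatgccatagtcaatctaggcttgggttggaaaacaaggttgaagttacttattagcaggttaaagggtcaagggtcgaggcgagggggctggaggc
Apoa5: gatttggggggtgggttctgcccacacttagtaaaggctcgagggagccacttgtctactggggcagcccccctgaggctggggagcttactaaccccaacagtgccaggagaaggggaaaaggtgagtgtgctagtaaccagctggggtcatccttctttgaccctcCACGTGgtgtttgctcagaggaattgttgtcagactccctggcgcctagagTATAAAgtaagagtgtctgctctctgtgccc
Mttp to Trmt10a: acgtcatcggactgcgctaactccaaacc

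The motifs searched, on both strands of the 250 bases, were the E-box CACGTG, the TATA box TATAAA, the CCAAT box, the GC box with the letters GGGCGG, and 2 stretches known from motifs of nuclear receptors, CAAAGTCC as in HNF4 sites and CAAAGGTCA as in direct repeats. Over 32851 RefSeq promoters, 6.02% held the E-box, 12.4% the TATA box, 33.8% the CCAAT box, 32.7% the GC box, 1.20% the HNF4 letters and 0.426% the direct repeat letters. The Apoa5 window held CACGTG from 82 to 77 bases and TATAAA from 31 to 26 bases before its start. Apob held TATAAA from 60 to 55 bases before its start, and no motif of the 6 was found in the windows of Apoa1, Apoa4, Apom and the upstream start of Mttp. A match in a window is a description of its letters only.

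In RNA-seq, 4 of the 10 genes were higher in the LKO-labelled libraries and 0 were lower. Over all 14151 genes tested, 14.6% were higher and 13.4% lower, that is 2066 and 1892 genes. Under upper quartile normalization, the split over all genes was 2518 higher and 1330 lower. The median log2 fold change of the 10 genes was 0.14, against 0.0061 over all genes tested. Since the genes were chosen with earlier results of these data known, these comparisons only describe them. The called genes were Apoa4, Apom, Apoc3 and Lpl. A comparison of 2 WT with 2 LKO-labelled libraries cannot give an exact permutation p under 0.333, and the edgeR p-values measure the spread between pools.

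Levels per transcript length, as TPM (counts divided by transcript length and scaled to a common sum), spanned from Apoe to Lpl. In WT refed liver the order was Apoe at 34396 ± 640 TPM (SD, n = 2), Apoa2 at 21605 ± 1315, Apoa1 at 18419 ± 323, Apoc3 at 7203 ± 525, Apoa4 at 1645 ± 2.99, Apoa5 at 976 ± 5.67, Apob at 363 ± 39.7, Apom at 321 ± 58.4, Mttp at 119 ± 9.70 and Lpl at 16.5 ± 1.51 TPM. Apob and Apom were the only neighbours in this order whose libraries overlapped. In the LKO-labelled libraries Apom, at 490 ± 27.5 TPM, stood above Apob, at 379 ± 40.6 TPM, and these did not overlap. Together the 10 genes held 5.07% and 4.89% of all counts in WT and 5.10% and 5.37% in LKO-labelled libraries. Apoe was the second most abundant gene of the table by WT TPM.

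**Figure D1:**
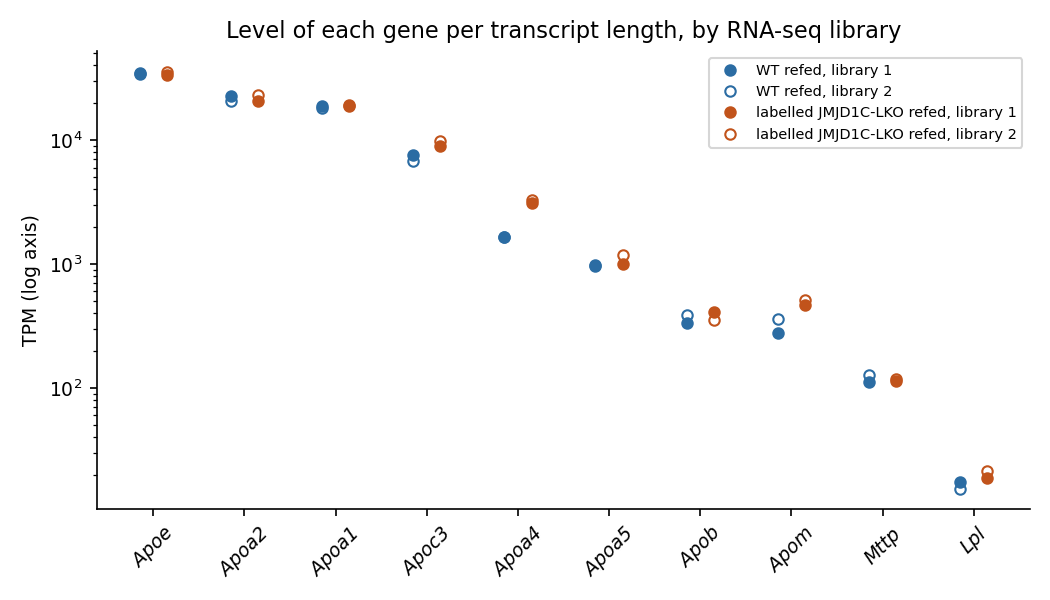
Level of the 10 genes in TPM on a log axis, with 1 point per RNA-seq library (WT refed left, LKO-labelled refed right within each gene). The points of Apoa4 separate by group, from 1643 to 1648 TPM in WT and from 3123 to 3268 TPM in LKO-labelled libraries.

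Among the structural apolipoproteins, Apob, the large protein of VLDL and of chylomicrons, had 2733 and 3123 CPM in WT and 3435 and 2814 CPM in LKO-labelled libraries. Its groups overlapped, with a log2 fold change of 0.09 ± 0.12 (adjusted p = 0.583 in edgeR's test). Apoa1, the main protein of HDL, had 10823 and 10330 CPM in WT and 11177 and 10893 CPM in LKO-labelled libraries. These did not overlap, but the log2 fold change of 0.06 ± 0.09 did not pass the test (adjusted p = 0.655 in edgeR's test). Apoa2, the second HDL protein, overlapped between groups at 5975 to 6627 CPM, with a log2 fold change of 0.03 ± 0.10 (adjusted p = 0.838 in edgeR's test).

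Apoa4, an apolipoprotein of chylomicrons and HDL, had the largest difference of the 10 genes. It had 1612 and 1574 CPM in WT and 3153 and 3147 CPM in LKO-labelled libraries. The groups were far apart, with 1.98-fold higher levels and a log2 fold change of 0.98 ± 0.08 (adjusted p = 0.000108 in edgeR's test). Across the 11 alternatives its log2 fold change lay between 0.96 and 1.05 and passed in each.

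Apoc3, which slows the clearance of triglyceride-rich particles, had 2056 and 1819 CPM in WT and 2492 and 2629 CPM in LKO-labelled libraries. The groups did not overlap and the log2 fold change was 0.40 ± 0.09 (adjusted p = 0.0121 in edgeR's test). Without the second WT library it was 0.31 and no longer passed (adjusted p = 0.170). Apoa5, which promotes lipolysis of triglyceride-rich particles, had 1340 and 1301 CPM in WT and 1420 and 1582 CPM in LKO-labelled libraries. Its log2 fold change of 0.18 ± 0.09 did not pass (adjusted p = 0.153 in edgeR's test), and without the first LKO-labelled library it was 0.25 and passed (adjusted p = 0.0360). Without the second LKO-labelled library it was 0.10 (adjusted p = 0.418), so its size depended on which of these libraries was kept.

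Apom, which binds sphingosine-1-phosphate on HDL, had 126 and 159 CPM in WT and 218 and 225 CPM in LKO-labelled libraries. All LKO-labelled values lay above both WT values, with a log2 fold change of 0.64 ± 0.11 (adjusted p = 0.00298 in edgeR's test). Over the alternatives it ranged from 0.47 to 0.81 and passed in 11 of 11. Apoe, the ligand of remnant receptors, lay between 23470 and 24771 CPM in the 4 libraries, and its groups overlapped, with a log2 fold change of 0.04 ± 0.10 (adjusted p = 0.804 in edgeR's test).

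Mttp had 283 and 310 CPM in WT and 296 and 294 CPM in LKO-labelled libraries, a log2 fold change of -0.0079 ± 0.08 (adjusted p = 0.954 in edgeR's test). The groups overlapped. Its transcripts use 2 annotated starts, and the upstream start, shared by 3 of its 4 transcripts, took 39.5% and 38.6% of its estimated counts in WT and 39.9% and 40.4% in LKO-labelled libraries. Transcripts of a gene share exons, so these shares depend on how the authors divided reads.

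Lpl, which in adult liver is low in hepatocytes, had 41.8 and 35.9 CPM in WT and 45.8 and 50.1 CPM in LKO-labelled libraries. The groups did not overlap, by a narrow margin, and the log2 fold change was 0.30 ± 0.10 (adjusted p = 0.0405 in edgeR's test). It no longer passed in 5 of 11 alternatives. The log2 fold change was about as large with DESeq2 (0.30, adjusted p = 0.0516) and with the most abundant transcript (0.31, adjusted p = 0.0901). It was larger without the first WT library (0.41, adjusted p = 0.0767), and smaller without the second WT library (0.19, adjusted p = 0.360) or the second LKO-labelled library (0.24, adjusted p = 0.119). Kupffer and endothelial markers also were higher in these libraries, as given above, and their part in the result of Lpl was not tested.

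**Figure D2:**
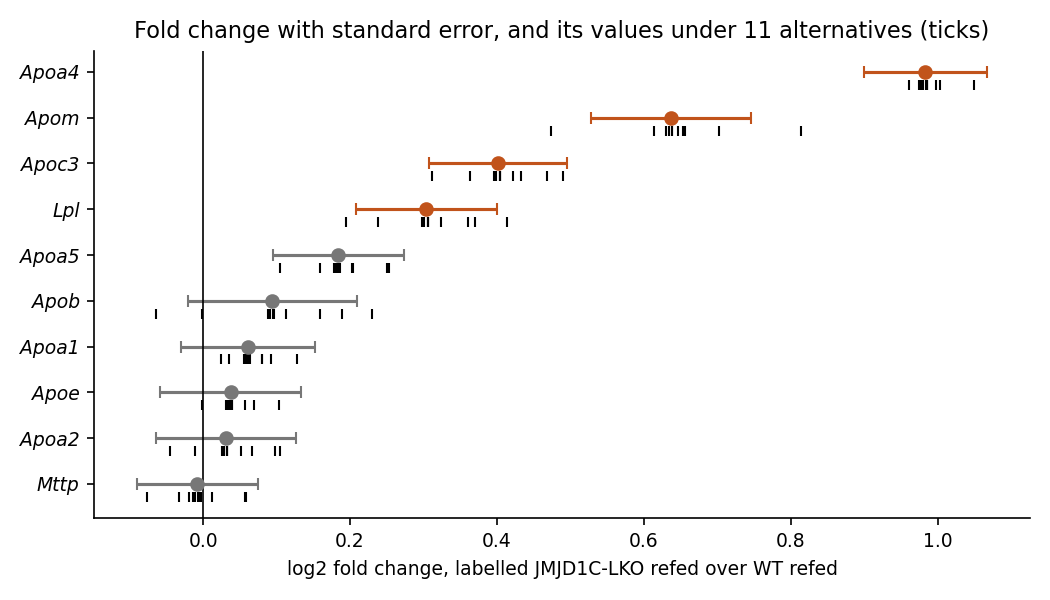
Log2 fold change of each of the 10 genes (LKO-labelled refed over WT refed) with its standard error from edgeR, in orange where the adjusted p was under 0.05, and ticks for its values under 11 alternatives. Apoa4 and Apom stay clear of 0 throughout, and the ticks of Mttp, Apob, Apoa2 and Apoe fall on both sides of 0.

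The pathway around these genes was read from lists, beside 14.6% higher and 13.4% lower over all genes tested. A list of other apolipoproteins was drawn up by gene symbol, without a check of function. Of its 8 genes tested, Apoc2, the cofactor of Lpl, was higher (log2 fold change 0.61) and Apoo was lower (-0.37). Apoc2 had 298 and 308 CPM in WT and 444 and 481 CPM in LKO-labelled libraries, and the list median was 0.0012. Among 17 genes of particle assembly and secretion, 3 were higher, Pla2g12b (0.50), Dgat1 (0.43) and Apobec1 (0.40), the enzyme that edits Apob mRNA, and 2 were lower, Tm6sf2 (-0.60) and Ces1d (-0.49), with a median of -0.02. In lipase control and remodelling, 5 of 12 were higher and 1 lower, with a median of 0.0075. Those named are Abcg1 (1.35), Angptl4 (0.91), an inhibitor of Lpl, Gpihbp1 (0.86), which anchors Lpl on capillaries, and Pltp (0.65). Angptl8, a regulator of Lpl activity, fell by 1.84 on the log2 scale, from 306 and 282 CPM in WT to 99.2 and 65.1 CPM. Abcg1, Gpihbp1 and Pltp are also expressed in macrophages or endothelium, whose markers were higher too, and their part was not tested.

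Lipoprotein receptors were higher in 6 of 10 cases and lower in 2, with a median log2 fold change of 0.36. Scarb1, the HDL receptor, was higher by 0.76 and Lrp1, a remnant receptor, by 0.63 on the log2 scale, while Lsr, a receptor for triglyceride-rich particles, was lower (-0.29). The part of the higher Kupffer and endothelial markers in the receptor levels was not tested. Of 21 transcriptional regulators, 5 were higher and 6 lower, with a median of 0.02. For both lists, the shares over all genes tested were 14.6% higher and 13.4% lower. Ppargc1b (0.79), Foxo1 (0.50), Creb3l3, a factor of triglyceride metabolism (0.35), and Nr0b2 (0.37) were among those higher. Onecut1 (-1.21), Nr1h4, the bile acid receptor (-0.65), Foxa2 (-0.60) and Mlxipl, the carbohydrate response factor (-0.49), were among those lower.

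Around the Apoa1 cluster on chromosome 9, where Apoa1, Apoc3, Apoa4 and Apoa5 lie within 43292 bp (chr9:46228630-46271921), neighbour Zpr1 was higher (0.43 ± 0.11, adjusted p = 0.0191 in edgeR's test) and Bud13 was not called (0.38 ± 0.15). Next to Apoe, Apoc1 (0.01 ± 0.09), Apoc4 (-0.01 ± 0.11) and Tomm40 (-0.02 ± 0.08) were not called, and Apoc2 was the 1 gene called.

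ATAC-seq marks open chromatin, and each liver has its own list of MACS2 summits. A start summit here lies within 1000 bp of an annotated start. Of the 10 genes, only Mttp had one, in the first WT fasted, first WT refed and first JMJD1C-LKO liver, where 12.0%, 9.94% and 4.06% of all genes had one. In the second livers of these groups 0 of the 10 had one, against 5.49%, 6.24% and 0.886% of all genes. None had one in both livers of a group, against 4.36%, 4.78% and 0.397% of all genes for the fasted WT, refed WT and refed JMJD1C-LKO groups. The Mttp summits lay 213, 159 and 151 bp before its upstream start, and 114, 60 and 52 bp from a start of Trmt10a, a tRNA methyltransferase gene on the other strand. The nearest Trmt10a start is 30 bp from that of Mttp, so the 2 genes cannot be told apart by these summits. Among genes at 1000 CPM or more in refed WT RNA-seq, the class of 7 of the 10 genes, 0% to 9.32% had a start summit per liver.

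No ATAC-seq summit lay in the Apoa1 cluster in any of 6 livers. The nearest to Apoe, in 5 of 6 livers, was at the start of Tomm40, 16453 to 16551 bp away, and in the first WT refed liver 1 summit lay in an intron of Apob, 21880 bp from its start. The summit lists give no read depth, so the lack of a summit says that no peak passed the authors' thresholds, not that a start was closed. The JMJD1C-LKO livers had 1450 and 825 ATAC-seq summits, fewer than any WT liver, at 3119 to 7632.

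H3K9me2, a mark of histone H3 associated with repression, had start summits at 7 and 8 of the 10 genes in the WT fasted livers and at 0 and 8 in the WT refed livers. The shares over all genes were 29.3%, 42.7%, 0.233% and 35.1%. The first refed liver had 1297 summits in all, against 7690 to 13456 in the other livers, so the refed group rests on 1 liver. In both fasted livers Apoa2, Apob, Apoc3, Apoe, Apom and Mttp had one, 6 of 10 against 29.1% of all genes. In both refed livers 0 did, against 0.042%.

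By classes of mean CPM in refed WT RNA-seq, used for the fasted livers too, an H3K9me2 start summit was more common among expressed genes in general. In the 3 livers with many summits it was 8.58% to 21.8% under 1 CPM, 75.6% to 95.0% from 10 to 100 CPM and 83.1% to 92.4% at 1000 CPM or more. In the last class 5, 6 and 6 of the 7 genes had one, so their share was near that of genes of like level. Lpl had none in any of 4 livers. Apoa4 had 1, in the second fasted liver, with a score (−log10 q) of 6.18, at rank 12251 of 13456.

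Positions also were similar among the genes. In the 3 livers with many summits, 6 of 7, 8 of 11 and 8 of 9 start summits of the 10 genes lay downstream of the start, where 88.6%, 83.2% and 86.5% of all start summits did. These downstream summits lay in introns, except that of Apoa4, which lay in an untranslated part of an exon. Apob had a summit 308 to 687 bp past its start, in an intron, that ranked within the top 4.03% of the 3 lists. Mttp had its highest 544 to 651 bp past its downstream start, and Apoe 82 to 112 bp before the start of its most abundant transcript, inside an intron of longer ones. Apom summits ranked low, at 63.5% to 98.0% from the top.

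**Figure D3:**
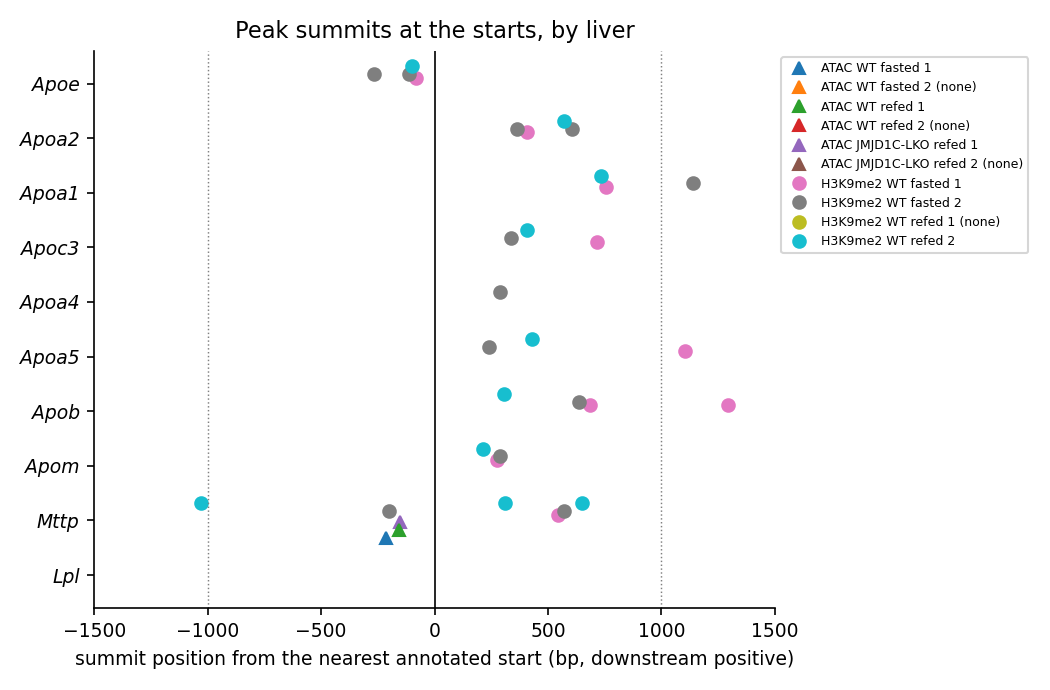
Summits near the nearest annotated start of each of the 10 genes, with distance from the start in bp (downstream positive) on the horizontal axis and 1 colour per liver, triangles for ATAC-seq and circles for H3K9me2. Triangles appear only at Mttp, and circles lie mostly to the right of the start at every gene with summits but Apoe.

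**Figure D4:**
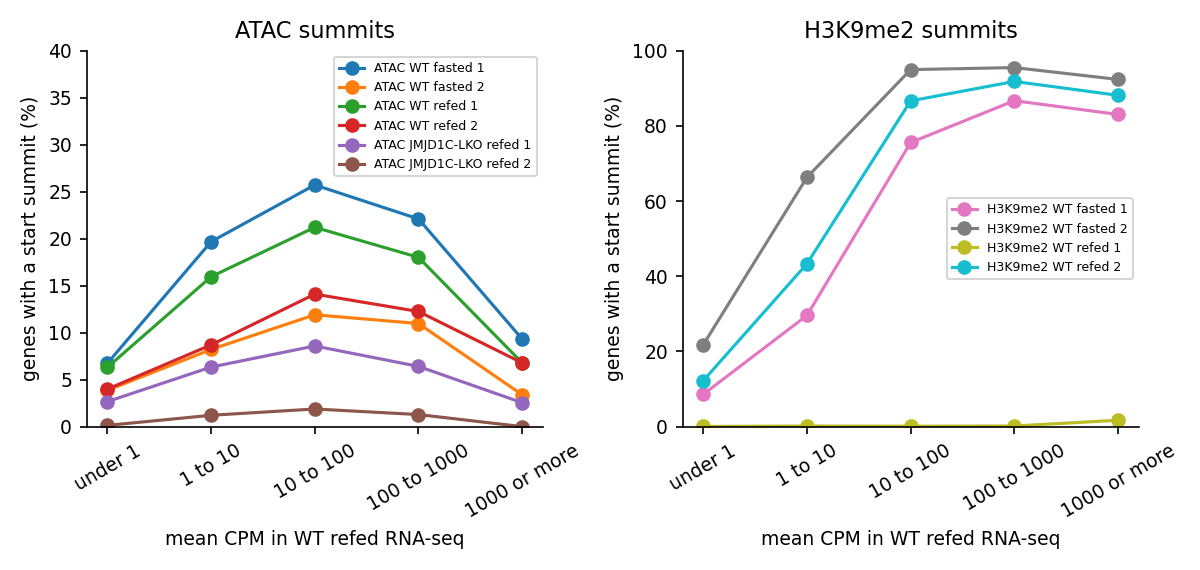
Percent of genes with a start summit by class of mean refed WT CPM, 1 line per liver, ATAC-seq left and H3K9me2 right, on axes of different range. Fasted livers are thus set against refed expression. In 3 of the 4 H3K9me2 livers the share is 75.6% or more from 10 CPM on, and the first refed liver lies near 0.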

How the data were processed

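For RNA-seq, unscaled estimated counts of RefSeq transcripts were deposited. For ATAC-seq and H3K9me2, the authors gave MACS2 (2.1.1) summits per liver, with the −log10 of the q-value as score (cutoff 0.05, and 2-fold or, over input, 2.5-fold enrichment). The RNA aligner's settings, the counting method and its use of strand are not given in the sources used here. Reads of overlapping genes, such as Apoa2 and Tomm40l, may thus be shared. A second deposited table, of the authors' own comparison (p-values and fold changes per transcript), was not used. Of the series' samples, 4 input libraries have no file of their own here.

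Transcript counts were summed per gene, rounded and filtered with filterByExpr. The test was edgeR (4.0.16) quasi-likelihood with TMM normalization and Benjamini-Hochberg adjustment over all 14151 genes, at 0.05. The SE was derived from the F statistic. DESeq2 (1.42.0) was an alternative. CPM is TMM-scaled, and TPM uses RefSeq exon lengths. The script was tested on simulated data. Replicate numbers did not pair libraries: deviations from the group mean had a correlation of -0.02 between same-numbered WT and LKO-labelled libraries. The labels name no separate mice behind the pools.

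Named were all 10 genes, at most 4 per list and direction by p, Jmjd1c, and genes within 25 kb in the Apoa1 and Apoe clusters. Members and lists were chosen with earlier results of these data known. Among the other marker lists, 1 of 1 adipocyte gene tested (Cidec) and 1 of 5 red blood cell genes (Alas2) were higher, beside 14.6% of all genes. Adipoq was under 1 CPM in all libraries, and 1 pancreas gene, Cela1, was in the table. Analyses used Python (3.11.15) and R (4.3.3).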

Additional observations from a re-analysis of the deposited data

How the results depend on the processing

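The calls of Apoa4 and Apom held under all 11 RNA-seq alternatives, Lpl lost its call in 5 and Apoc3 in 1, and Apoa5 gained one in 1. The members called higher numbered 2 to 5 when a library was left out, and 4 or 3 otherwise, with 0 lower in each. With each gene's most abundant transcript, 1263 genes were higher and 1063 lower. Leaving out a library gave 660 to 2590 higher and 408 to 2590 lower, and without the first WT library 789 and 476. The replicate block gave 2211 higher and 1996 lower, and changed no member's call. The log2 fold change changed sign for Mttp under upper quartile normalization (0.058) and with a CPM of at least 1 in 2 libraries (0.011). Leaving out a library gave -0.076 to 0.057 for Mttp, -0.064 to 0.231 for Apob, -0.045 to 0.105 for Apoa2 and -0.0012 to 0.070 for Apoe, none of them called. The cause was not tested.

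Genes with a start summit in either liver rather than both numbered 1 for each ATAC-seq group and 8 for H3K9me2 WT refed. A window of 500 bp gave 3 for H3K9me2 WT fasted. Leaving out a liver gave 0 to 1 for each ATAC-seq group, 7 to 8 for H3K9me2 WT fasted and 0 to 8 for WT refed. With 2 samples per group and no read depth in the summit lists, small differences are not detectable.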
